A study of Schizosaccharomyces pombe with 29 samples.

Results

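The Tf2 elements are long terminal repeat (LTR) retrotransposons of fission yeast, Schizosaccharomyces pombe. They were taken as every row of the deposited expression table whose name starts with Tf2, antisense rows left out. This gave 13 of the 7016 rows, Tf2-1 to Tf2-13. Rows with identical values in every library were counted once, which left 8 distinct rows. Tf2-1 stands also for Tf2-2, Tf2-3 also for Tf2-5, Tf2-6 and Tf2-12, and Tf2-4 also for Tf2-9. Tf2-7, Tf2-8, Tf2-10, Tf2-11 and Tf2-13 have values of their own.

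RNA-seq was done on 8 libraries in 3 groups that differ in RNase H, the enzyme class that cuts the RNA strand of RNA-DNA hybrids. There were 3 wild-type libraries (WT), 3 libraries of cells overexpressing the RNase H gene rnhA of Escherichia coli (pRnhA), and 2 libraries of the rnh1Δrnh201Δ strain, which lacks the genes for RNase H1 and for the catalytic subunit of RNase H2. Cells of all 3 groups grew in PMG, a minimal medium, and spent 3 hours at 34 °C before collection. Total RNA was taken with hot phenol, prepared with a directional kit and read as 50 bases from one end. The labels do not say whether replicates were separate cultures, so the p-values below measure the spread between these libraries. That spread may be technical among libraries that express the same mating type. Each group also mixes libraries of both mating types, as given below.

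A Tf2 element moves by copying its RNA into DNA. Its coding sequence makes a polyprotein with Gag (the particle protein), protease, reverse transcriptase with its own RNase H domain, and integrase. In fission yeast the CENP-B homologues, histone deacetylases, the HIRA histone chaperone and the Set1 methyltransferase are known to keep Tf2 RNA low, and the sterol regulator Sre1 is known to raise it when oxygen is scarce.

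The copies are close to identical, which limits what a row can measure. In the RefSeq assembly ASM294v3, matched by symbol, 8 copies lie on chromosome I, 3 on II and 2 on III, with 4 on the plus strand and 9 on the minus strand. The 13 copies hold 6 distinct coding sequences. Tf2-1, Tf2-2, Tf2-4 and Tf2-9 are the same sequence, Tf2-3, Tf2-5, Tf2-6 and Tf2-12 are the same, and Tf2-7 and Tf2-8 are the same. Any pair of copies differs by at most 20 edits, an identity of at least 99.5%. Tf2-3 differs from Tf2-1 by 2 substitutions, T153A and T617C, counted from 1 at the first base of the coding sequence with the Tf2-1 base first. Tf2-7 differs from Tf2-1 by 10 edits and Tf2-11 by 16.

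The stretches below are shown because they hold bases that separate the sequence classes, which are in capitals. They are from RefSeq ASM294v3, written 5′ to 3′ on the coding strand. Bases 593 to 672 of the coding sequence read:
Tf2-1: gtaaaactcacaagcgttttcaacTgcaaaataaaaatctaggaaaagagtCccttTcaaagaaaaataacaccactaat
Tf2-3: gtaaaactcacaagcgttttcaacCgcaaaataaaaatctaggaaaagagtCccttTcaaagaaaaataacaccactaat
Tf2-7: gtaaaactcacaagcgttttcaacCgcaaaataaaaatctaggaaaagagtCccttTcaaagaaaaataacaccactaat
Tf2-11: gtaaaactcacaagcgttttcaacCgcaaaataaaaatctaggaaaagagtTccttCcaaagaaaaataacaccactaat
In this stretch Tf2-3 and Tf2-7 read alike, and Tf2-11 has changes of its own. Bases 1608 to 1687 read:
Tf2-1: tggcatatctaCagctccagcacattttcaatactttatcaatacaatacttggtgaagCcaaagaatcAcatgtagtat
Tf2-3: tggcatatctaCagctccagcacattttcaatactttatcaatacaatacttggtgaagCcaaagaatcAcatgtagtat
Tf2-7: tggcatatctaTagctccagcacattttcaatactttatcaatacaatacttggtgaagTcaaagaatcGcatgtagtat
Tf2-11: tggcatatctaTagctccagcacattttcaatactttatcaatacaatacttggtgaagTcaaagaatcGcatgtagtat
Here Tf2-1 and Tf2-3 read alike, and so do Tf2-7 and Tf2-11. Tf2-10 and Tf2-13 have a coding span of 4001 bases against 4002 in the other 11 copies, each through a deletion of a single base. Around the deletion in Tf2-10, with the affected run in capitals, bases 2056 to 2117 of Tf2-1 and the matching stretch of Tf2-10 read:
Tf2-1: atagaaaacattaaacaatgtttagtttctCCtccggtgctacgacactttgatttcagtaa
Tf2-10: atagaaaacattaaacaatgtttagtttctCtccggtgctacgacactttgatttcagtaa
Around the deletion in Tf2-13, bases 2233 to 2293 of Tf2-1, with the lost base in capitals, and the matching stretch of Tf2-13 read:
Tf2-1: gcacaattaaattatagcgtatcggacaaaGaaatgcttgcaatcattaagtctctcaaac
Tf2-13: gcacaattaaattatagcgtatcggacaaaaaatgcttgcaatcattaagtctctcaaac

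A 50-base read can seldom be placed on a given copy. Of the 3953 windows of 50 bases along the coding sequence of Tf2-1, 3076 (77.8%) occur in all 13 copies. For 10 of the 13 copies, 0 windows occur only once in the genome. Tf2-11 has 358 such windows (9.06%), Tf2-10 has 162 (4.10%) and Tf2-13 has 49 (1.24%). How reads that match several copies were counted is not given in the sources used here, so the rows cannot be taken as independent measurements, and a count such as 8 of 8 rows is not 8 observations. A change in every copy and a change in a few copies cannot be told apart, nor, in these bulk samples, can fewer cells with Tf2 RNA and less Tf2 RNA per cell.

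The Tf2 rows were high in every library and highest in WT replicate 3. The authors' DESeq2-normalized counts, printed to 2 significant digits, were 23000, 28000 and 49000 for Tf2-1 in WT replicates 1, 2 and 3. In pRnhA they were 18000, 18000 and 20000, and in rnh1Δrnh201Δ 20000 and 26000. All 3 pRnhA libraries were below all 3 WT libraries, and the rnh1Δrnh201Δ libraries lay within the WT range for replicate 2 and below it for replicate 1. For Tf2-3, WT had 23000, 28000 and 48000, pRnhA 17000, 17000 and 19000, and rnh1Δrnh201Δ 20000 and 25000. Tf2-7, the highest row by its mean, had 24000, 29000 and 50000 in WT, 18000, 18000 and 20000 in pRnhA, and 21000 and 26000 in rnh1Δrnh201Δ. Tf2-11, the lowest and the most diverged from Tf2-1, had 20000, 24000 and 42000 in WT, 15000, 15000 and 17000 in pRnhA, and 17000 and 22000 in rnh1Δrnh201Δ. In every row replicate 3 was the highest of WT and of pRnhA, and replicate 2 was the higher of rnh1Δrnh201Δ. The other rows, Tf2-4, Tf2-8, Tf2-10 and Tf2-13, ran from 22000 to 48000 in WT, from 17000 to 20000 in pRnhA and from 19000 to 26000 in rnh1Δrnh201Δ.

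**Figure D1:**
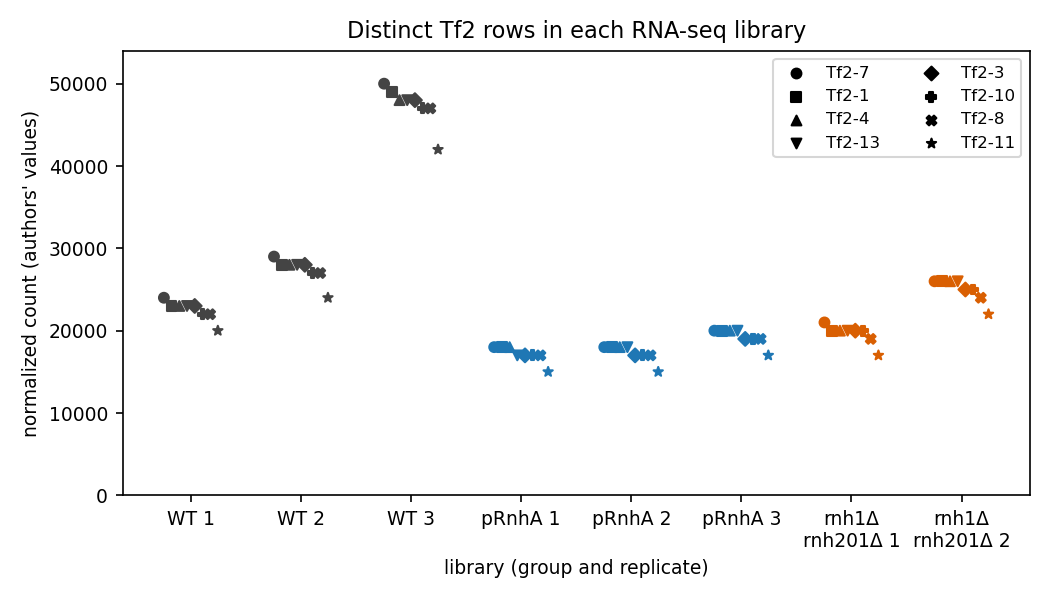
Normalized count of the 8 distinct Tf2 rows (marker shapes) in each of the 8 libraries, coloured by group; each point is a row in a library. Rows lie close together within a library, from 42000 to 50000 in WT replicate 3 and from 15000 to 20000 over the pRnhA libraries.

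Per length, Tf2-1 had a mean of 6309 normalized counts per kb of ASM294v3 gene span (the annotated gene length) over the 8 libraries. This ranked 89 of 5104 protein-coding rows, and the lowest row, Tf2-11, ranked 130. The gene span of Tf2-1 equals its coding span, while that of other genes can be longer, so the ranks may compare unlike lengths. The Tf2-1 row made up 0.211% to 0.543% of a library's total normalized count. Since the counting of reads that match several copies is unknown, neither the ranks nor this share can be read as the level of a single copy.

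Differences between rows were small beside differences between libraries, and their order was much the same in each library. Tf2-11 was 83.3% to 87.0% of Tf2-1 in all 8 libraries. Tf2-8 was 92.3% to 96.4% of Tf2-1. Tf2-7, whose coding sequence equals that of Tf2-8, was 100% to 105% of Tf2-1 and above Tf2-8 in each of the 8 libraries. The gene span of Tf2-7 in ASM294v3 is 84 bases longer than its coding span, and that of Tf2-8 is not longer. Tf2-2 has 115 extra bases and the same values as Tf2-1, whose span is not longer. Whether the span bears on the values was not tested. Tf2-3, Tf2-5, Tf2-6 and Tf2-12 share their coding sequence and their values, whereas Tf2-1 and Tf2-4 share a coding sequence and differed only in WT replicate 3, at 49000 and 48000. With values rounded to 2 significant digits, neighbours in this order other than Tf2-11 often had equal values.

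**Figure D2:**
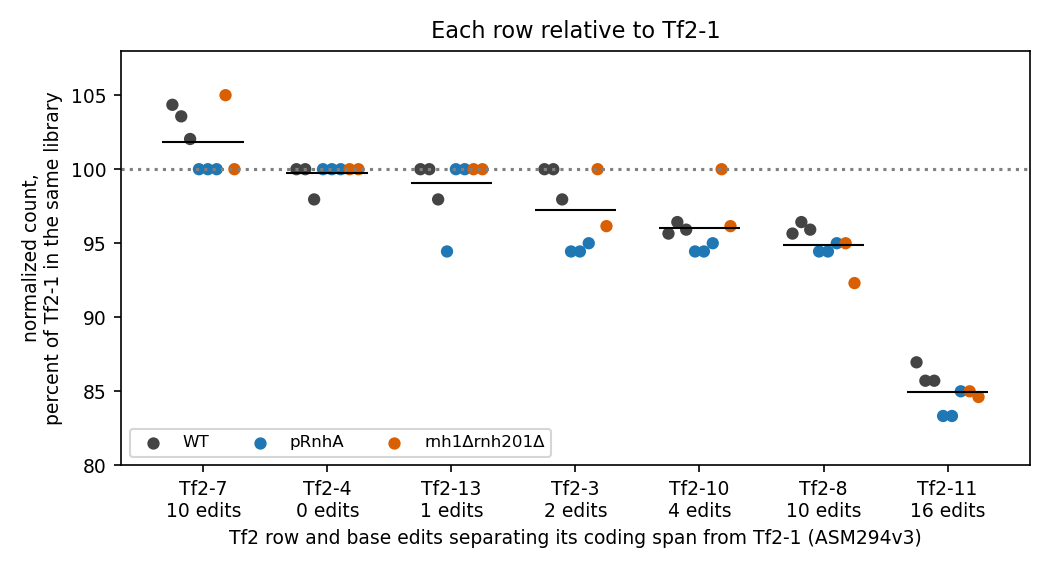
Each Tf2 row as a percent of Tf2-1 in the same library (points, coloured by group; the vertical axis starts at 80%) with its mean over the 8 libraries as a bar; the horizontal axis gives the base edits between each coding span and Tf2-1. Tf2-11, with 16 edits, lies at 83.3% to 87.0% in all libraries.

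WT replicates were spread widely. The highest WT value of a row was 2.08 to 2.14 times the lowest. Of the 4532 rows with a mean of at least 200, 2.71% had a wider ratio in WT than the Tf2 median of 2.09, and the median ratio of those rows was 1.17. In pRnhA the ratio for Tf2 rows was 1.11 to 1.18, and 35.0% of the 4532 rows had a wider ratio than the Tf2 median of 1.12. In rnh1Δrnh201Δ, with 2 libraries, it was 1.24 to 1.30. There 3.57% of the 4532 rows had a wider ratio than the Tf2 median of 1.28, and their median ratio was 1.06.

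Libraries also differed in the mating type they express, which the labels do not give. The M-type transcript mat1-Mc was the higher one in 5 libraries and the P-type transcript mat2-Pc in 3, namely WT replicate 3, pRnhA replicate 3 and rnh1Δrnh201Δ replicate 1. The P-type library was the highest Tf2 library in WT and in pRnhA, and the lower one in rnh1Δrnh201Δ. The P-type libraries had a Tf2-1 value of 49000 (WT), 20000 (pRnhA) and 20000 (rnh1Δrnh201Δ). The part of mating type in the Tf2 levels was not tested beyond these values and the fits given below. As a check of the labels, rnh1 stood at 290 to 320 in WT and 23 to 36 in rnh1Δrnh201Δ, and rnh201 at 300 to 390 and 7 to 12. Library totals ran from 8392168 to 9455805 normalized counts, and the raw depth is unknown.

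Tf2 RNA was lower in pRnhA than in WT by about the same share in every row, but the difference passed the threshold narrowly, in 1 row, and not under most alternatives. Tf2-1 had a mean of 33333 ± 13796 in WT (SD, n = 3) and 18667 ± 1155 in pRnhA (SD, n = 3), which is 56.0% of WT. Over the 8 rows the pRnhA mean was 53.5% to 56.6% of WT. On the log2(value + 1) scale the changes ran from -0.83 to -0.75, with a median of -0.78, against a median of 0.0022 over all 6456 rows tested. Tf2-3 fell, by 0.83 (SE 0.25, limma adjusted p = 0.0478). The other 7 distinct rows did not pass, with limma adjusted p up to 0.0703 (Tf2-1). So 1 of 8 distinct rows was called, or 4 of 13 counting repeats, where 20.2% of all rows tested were called and 11.4% were called lower. Without adjustment 8 of 8 rows had p under 0.05 and lower values, as did 19.1% of all rows. All 8 rows had pRnhA libraries wholly below the WT libraries, as did 18.1% of all rows.

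Same-numbered WT and pRnhA libraries deviated together (r = 0.34, 0.35 and 0.60), so the fit with the number as a block is given beside this. Libraries with unlike numbers were not compared, so the pairing is not established. With that block over all 8 libraries, 8 of 8 rows were called, with limma adjusted p from 0.0242 (Tf2-3) to 0.0345 (Tf2-1), and 19.9% of all rows were called. That fit also pairs the rnh1Δrnh201Δ libraries by number. Their deviations did not go together in each pair (r = -0.17 and 0.39 with WT, -0.51 and 0.49 with pRnhA). With the block over only the WT and pRnhA libraries, added after the first block fit was seen, 0 were called, and Tf2-3 had a limma adjusted p of 0.0815; only 2.09% of all rows were called in that fit. Without WT replicate 1, 8 of 8 Tf2 rows and 33.6% of all rows were called. Without any other single library, 0 Tf2 rows and 3.28% to 14.3% of all rows were called. Leaving out WT replicate 1 gave a median change of -1.01, and leaving out WT replicate 3 gave -0.47. Within the mat1-Mc libraries alone the median Tf2 change was -0.53; 0 of all 6439 rows tested were called there, so that fit gives no call to read for Tf2. In the authors' deposited table the log2 fold changes of the 13 rows were -0.76 to -0.74, with adjusted p-values printed as 0, where 32.4% of its rows had an adjusted p under 0.05 and 18.5% were lower as well.

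**Figure D3:**
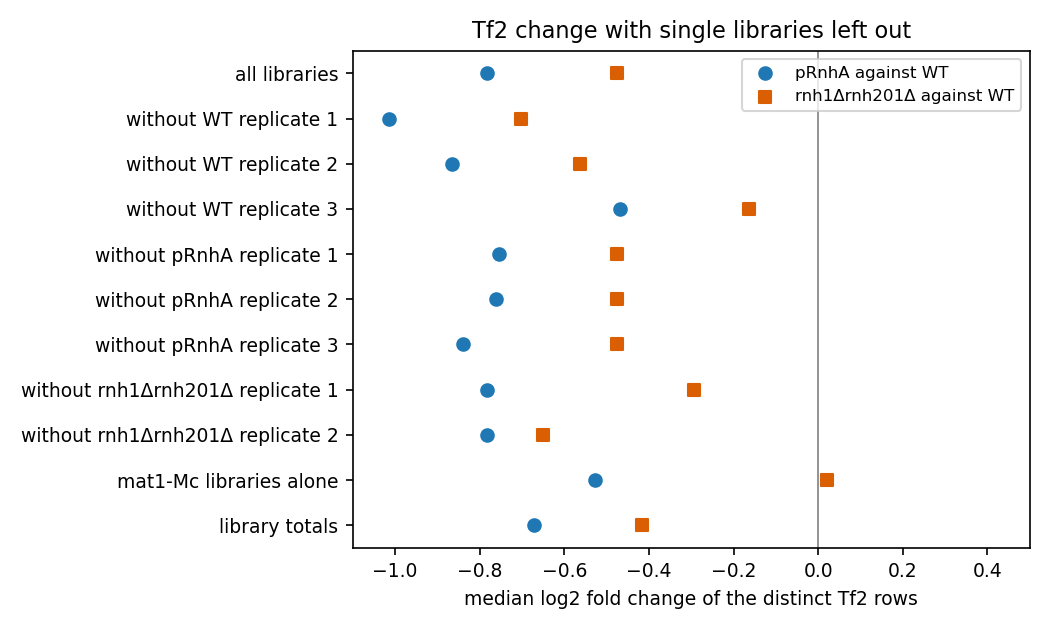
Median log2 fold change of the 8 distinct Tf2 rows against WT (horizontal axis) in pRnhA (circles) and rnh1Δrnh201Δ (squares), with all libraries, with each library left out, in mat1-Mc libraries alone and with scaling to library totals. The pRnhA median stays below 0 in these fits, from -1.01 to -0.47, while that of rnh1Δrnh201Δ runs from -0.70 to 0.020.

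In rnh1Δrnh201Δ, the mean of each Tf2 row lay between the means of the other groups. Single libraries overlapped those of WT, and no difference from WT passed the test. The mean of Tf2-1 was 23000 ± 4243 (SD, n = 2), or 69.0% of WT, and over the 8 rows the mean was 67.2% to 70.3% of WT. The log2 changes were -0.51 to -0.44, with a median of -0.48 against 0.011 over all rows. By limma, 0 of 8 rows were called (adjusted p from 0.346 to 0.417) and 0 had an unadjusted p under 0.05, where 0.294% of all rows were called and 21.3% had an unadjusted p under 0.05. The libraries overlapped those of WT in 8 of 8 rows, and 13.9% of all rows were lower without overlap. The authors' deposited table gave log2 fold changes of -0.46 to -0.43 with adjusted p from 0.10 to 0.12, where 15.4% of its rows had an adjusted p under 0.05. Without WT replicate 3 the median change was -0.16. Within the mat1-Mc libraries, with 1 rnh1Δrnh201Δ library, it was 0.020. Rows there ran from -0.022 (Tf2-8) to 0.037 (Tf2-10), so no direction can be read. Both comparisons share the WT libraries, so WT replicate 3 enters each.

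Compared directly, rnh1Δrnh201Δ was above pRnhA by 0.28 to 0.34 on the log2 scale, with 0 of 8 rows called by limma (adjusted p from 0.650 to 0.732; 0 at an unadjusted p under 0.05) and 0.356% of all rows called (12.5% at an unadjusted p under 0.05). In 3 of 8 rows both rnh1Δrnh201Δ libraries were above all pRnhA libraries, as in 17.9% of all rows. In the other Tf2 rows the lower rnh1Δrnh201Δ library equalled the highest pRnhA library as printed to 2 significant digits, for example at 20000 in Tf2-1. The 2 strains, altered in opposite directions, were thus not shown to differ in Tf2 RNA, nor shown to be alike.

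Of 30 genes in 4 lists (Tf2 silencing, the sterol pathway, integration and stress, and RNA decay), 6 passed the test in pRnhA, a share near the 20.2% of all rows, so the count shows nothing particular to these lists. Of 12 silencing factors, 2 fell in pRnhA, 0 rose, and the median change was -0.03. They were abp1, a CENP-B homologue, at 1600, 1600 and 1400 in WT and 1300, 1200 and 1100 in pRnhA (log2 change -0.35, limma adjusted p = 0.0201), and hip3, a HIRA subunit (-0.19, limma adjusted p = 0.0352). The most abundant of the list, the chromatin remodeller fft3, had a change of -0.11 (limma adjusted p = 0.193). Of 5 genes of the oxygen-regulated sterol pathway, sre1 fell (-0.40, limma adjusted p = 0.0236) and 0 rose. Its most abundant member nro1, a regulator of the Sre1 pathway, had a change of 0.21 (limma adjusted p = 0.273). Of 5 integration and stress genes, 1 fell and 0 rose. This was atf1, a stress transcription factor known to guide integration of the related Tf1 element, at 4400, 5000 and 4900 in WT and 3500, 3300 and 3400 in pRnhA (-0.49, limma adjusted p = 0.00496). The most abundant, sap1, a DNA-binding protein, had -0.23 (limma adjusted p = 0.0926). Of 8 RNA decay and RNA interference genes, 2 rose and 0 fell. These were rrp6, a nuclear exosome nuclease (0.28, limma adjusted p = 0.0212), and red1, which works with the exosome (0.32, limma adjusted p = 0.0280). In rnh1Δrnh201Δ, 0 genes of these lists passed, where 0.294% of all rows were called, so this count says little about the lists.

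The wtf genes are a repeated family that includes meiotic drivers and often lies beside LTRs. Of 25, 8 (32.0%) fell in pRnhA and 0 rose, where 11.4% of all rows were called lower; the other 17 did not pass. Changes were below 0 in 23, with a median of -0.37, where 48.8% of all rows were below 0. The 8 were wtf2, wtf5, wtf6, wtf7, wtf11, wtf14, wtf20 and wtf21. For wtf11 the normalized counts were 130, 150 and 200 in WT and 95, 110 and 100 in pRnhA (log2 change -0.63, SE 0.16, limma adjusted p = 0.0307). Those of wtf14 were 330, 460 and 460 in WT and 290, 280 and 290 in pRnhA (-0.52, limma adjusted p = 0.0270). In both genes the pRnhA libraries were wholly below the WT libraries, as in 18.1% of all rows. The most abundant member, wtf1, had a change of 0.05 (limma adjusted p = 0.720). As for Tf2, family members can share reads. In rnh1Δrnh201Δ 0 of 25 passed, where 0.294% of all rows were called, and the median was -0.17. The table had 0 rows with LTR in their name and 0 antisense rows starting with Tf2, and wtf11-antisense-1 did not pass (-0.08, limma adjusted p = 0.795).

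Of the 24 protein-coding genes nearest to the Tf2 copies, 2 rose and 2 fell in pRnhA, or 16.7% called, near the 20.2% of all rows. Their median change was -0.05. In rnh1Δrnh201Δ 0 passed, where 0.294% of all rows were called, and the median was -0.07. Those that fell were cao1, a copper amine oxidase gene upstream of Tf2-3 (-0.50, limma adjusted p = 0.0171), and mak2, a histidine kinase gene downstream of Tf2-6 (-0.26, limma adjusted p = 0.0204). Those that rose were rpb6, an RNA polymerase subunit gene upstream of Tf2-12 (0.44, limma adjusted p = 0.00776), and SPBC1E8.05, downstream of Tf2-10 and the most abundant neighbour (0.38, limma adjusted p = 0.0164). Normalized counts of cao1 were 2100, 2300 and 2900 in WT, 1700, 1700 and 1700 in pRnhA, and 1700 and 1800 in rnh1Δrnh201Δ.

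**Figure D4:**
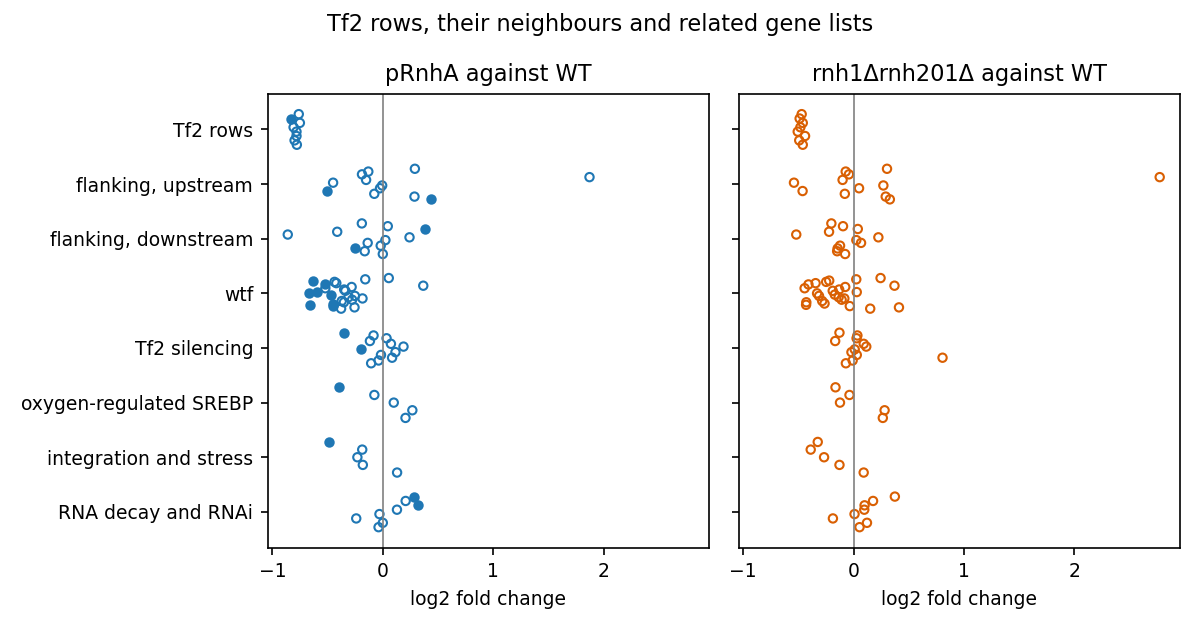
Log2 fold change against WT of the Tf2 rows, their neighbours and the gene lists (points; filled where the limma adjusted p is under 0.05) in pRnhA (left) and rnh1Δrnh201Δ (right). In pRnhA the Tf2 rows lie at -0.83 to -0.75 and the 25 wtf genes have a median of -0.37. In rnh1Δrnh201Δ no point is filled, where 0.294% of all rows were called. The upstream neighbour far to the right is SPBC1289.14, at 0 to 20 normalized counts.

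The profile most like that of Tf2 belonged to a neighbour. Among 5736 other rows with a mean of at least 20, likeness was Pearson's r of log2(value + 1) with the Tf2 mean over the 8 libraries, as a description; these points share libraries, and WT replicate 3 is the extreme. The 5 highest were amt3 (r = 0.994), prl14 (0.993), fft2-antisense-1 (0.993), gar1-antisense-1 (0.993) and mug106-antisense-1 (0.992), and 43 rows reached 0.95. The ammonium transporter gene amt3 lies downstream of Tf2-3 on the same strand with 757 bases between. Its normalized counts were 620, 880 and 1600 in WT, 500, 510 and 570 in pRnhA, and 600 and 740 in rnh1Δrnh201Δ. It thus ran at 2.70% to 3.27% of Tf2-1 in every library, and its change in pRnhA was -0.86 (SE 0.29, limma adjusted p = 0.0698). The noncoding RNA row prl14 had 510, 660 and 1100 in WT, 400, 390 and 460 in pRnhA, and 500 and 600 in rnh1Δrnh201Δ, or 2.17% to 2.50% of Tf2-1. The 3 antisense rows ran at 2.00% to 2.75% of Tf2-1, and all 5 rows were highest in WT replicate 3.

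Of the rows named above as most like Tf2, prl14 was found to share sequence with it, and amt3 was not. The windows sought were 50 bases long, on either strand, and recur between Tf2 copies in the coding span or its 1000-base flanks. Apart from Tf2, 10 rows hold such a window, out of 6234 rows matched to ASM294v3, and prl14 holds 44 of 713. Neither amt3 nor the 3 antisense rows are among the 10. Rows without a match were not searched, and whether the 3 antisense rows were matched was not recorded. Their absence from the 10 thus does not show that they share no sequence with Tf2. A shared window need not lie on the same strand. The noncoding RNA row SPNCRNA.863 shares 865 of 1579 windows. Its normalized counts were 7200, 10000 and 18000 in WT, 5600, 5800 and 6700 in pRnhA, and 5200 and 6800 in rnh1Δrnh201Δ (r = 0.957; change in pRnhA -0.86, limma adjusted p = 0.0702). It was highest in WT replicate 3, as the Tf2 rows were. SPNCRNA.1287, with 117 of 981 windows shared, had r = 0.964 and a change in pRnhA of -0.86 (limma adjusted p = 0.101). SPNCRNA.862, with 208 of 1798 windows shared, rose in pRnhA (0.43, limma adjusted p = 0.0194, r = -0.867). The remaining rows of the 10 had r from -0.03 to 0.67. Whether shared reads set the likeness of these rows was not tested.

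**Figure D5:**
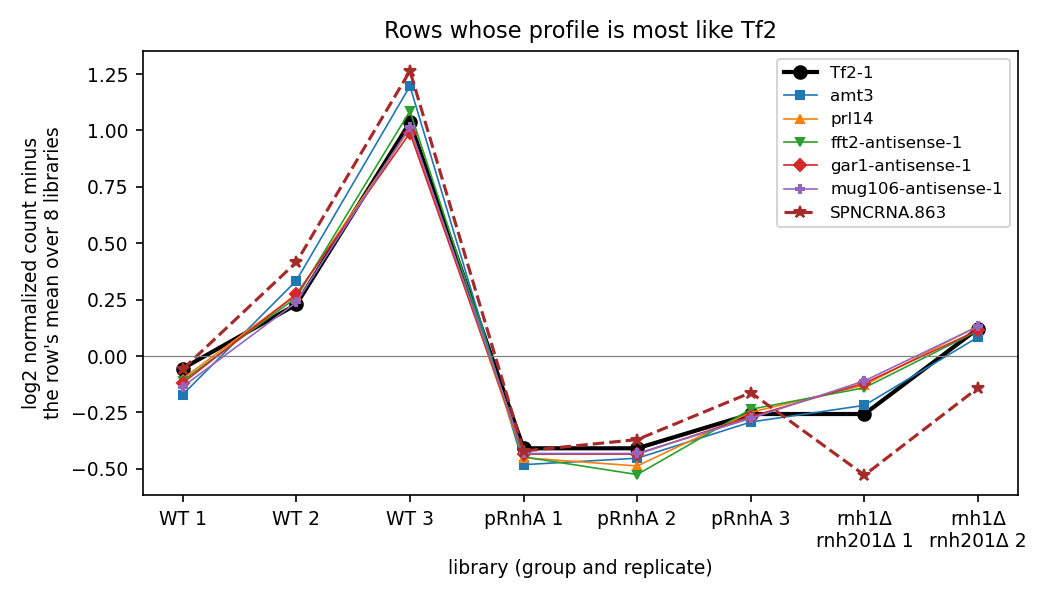
Log2 normalized count of Tf2-1, the 5 rows most like the Tf2 mean and SPNCRNA.863 in each library, minus the row's own mean over the 8 libraries; lines join the points of a row and imply no order. All 7 rows are highest in WT replicate 3; amt3, for example, had 1600 there against 500 to 880 in the other libraries.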

How the data were processed

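Of the 29 samples in the series, the 8 RNA-seq libraries were used; the other 21 (DRIPc-seq and small RNA) were not analysed here. For each of 7016 rows the authors deposited a DESeq2-normalized count per library and, for both altered strains, a log2 fold change with its adjusted p-value, per the file headers. The reference of these fold changes is not named there and was taken as WT, since for the Tf2 rows both have the sign of the ratio to WT. TopHat2 2.0.5, DESeq2 and the builds ASM294v2 and hg19 are named in the submitters' processing notes. The counting tool, annotation, use of strand and treatment of reads matching several places are not given in the sources used here. These deposited values are treated as a score, not as raw counts: all 56128 are whole with at most 2 significant digits, so depth is unknown and no interval is given.

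Limma-trend (limma 3.58.1, R 4.3.3) was fitted to log2(value + 1) for the 6456 rows whose mean was 1 or more. The 3 groups of libraries entered a joint fit that left 5 residual degrees of freedom, with Benjamini-Hochberg adjustment over all rows and a threshold of 0.05. This scale understates the change of low rows. The script was tested on simulated tables. Same-numbered WT and pRnhA libraries deviated together over 4532 rows with a mean of at least 200 (r = 0.34, 0.35 and 0.60); those of rnh1Δrnh201Δ did not in each pair (-0.17 and 0.39 with WT; -0.51 and 0.49 with pRnhA). Pairing thus rests on these correlations, not the labels, and libraries with unlike numbers were not compared. Alternatives covered the pseudocount, filter, scaling, trend, block, mating-type transcript, repeated rows, left-out libraries and the authors' own p-values.

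Names, neighbours, lengths and sequences came from RefSeq ASM294v3 (6234 rows matched by symbol, locus tag or synonym), which is not the build the notes name, so no genome coordinates are given. Named genes were all Tf2 rows, list genes past the threshold or most abundant in their list, and the 5 rows most like Tf2. SPNCRNA.862, SPNCRNA.863 and SPNCRNA.1287 were chosen after their values were seen. The members and lists were chosen with earlier results of these data known.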

Additional observations from a re-analysis of the deposited data

How the results depend on the processing

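For pRnhA against WT the count of called Tf2 rows, 1 of 8, depended on nearly every setting, while the median change stayed below 0 in all 22 alternatives (-1.01 to -0.47). The count was 0 with a pseudocount of 10, no filter, scaling to library totals, no trend, mat1-Mc libraries alone, only the libraries of the 2 groups, the replicate block in the WT and pRnhA libraries, and without the mat2-Pc libraries of WT and pRnhA; the last 2 were added after seeing the data. It was 2 with a filter at a mean of 20, with the mating-type transcript as a term and with identical rows counted once. It was 8 with the replicate block over all 8 libraries and by the authors' deposited adjusted p-values. Leaving out single libraries gave 0 to 8. The share of all rows called moved as well, from 0% in the mat1-Mc libraries to 33.6% without WT replicate 1, so a Tf2 count of 0 in a fit with few calls says little about Tf2. The adjusted p of Tf2-3 ran from 0.0109 to 0.159 over its alternatives. The cause was not tested. Scaling to library totals moved the median of all rows to 0.112 in pRnhA and 0.0708 in rnh1Δrnh201Δ.

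For rnh1Δrnh201Δ against WT the count was 0 in all 21 alternatives, and the median change, -0.48, turned to 0.020 in the mat1-Mc libraries alone, with Tf2-1, Tf2-4 and Tf2-13 at 0.035, Tf2-10 at 0.037 and Tf2-11 at 0.0060. In that mat1-Mc fit Tf2-3, Tf2-7 and Tf2-8 stayed negative, at -0.022, -0.021 and -0.022, so no direction can be read from it. The replicate block over all 8 libraries gave -0.30 for rnh1Δrnh201Δ against WT, though the rnh1Δrnh201Δ libraries did not pair by number in each case. Against pRnhA the count was 0 and the median 0.12 to 0.54 in all 20 alternatives. A fit that leaves 1 library in a group assumes that it varies like the others. Over all rows the calls ran from 0 to 2173 for pRnhA (1306 as reported), from 3 to 1264 for rnh1Δrnh201Δ (19), and from 5 to 93 between the strains (23).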

Other observations

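The silencing factor gene set1, a histone methyltransferase, had 5300 normalized counts in rnh1Δrnh201Δ replicate 2 and 1600 to 1800 in the other 7 libraries. It was singled out after its values were seen. Its change in rnh1Δrnh201Δ was 0.81 with a limma adjusted p of 0.276, and the authors' deposited table gives an adjusted p of 0.03. Tf2-1 stood at 26000 in that library and at 20000 in rnh1Δrnh201Δ replicate 1.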
